A study of Caenorhabditis elegans with 2 samples.

Results

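The genes examined are the Snail family genes of the nematode Caenorhabditis elegans, snai-1 (K02D7.2), ces-1 and scrt-1, together with the cell death gene egl-1. They were chosen by name and are 4 of the 19973 protein-coding genes annotated on the nuclear chromosomes. The assay was ChIP-seq, the sequencing of DNA that is precipitated with a chromatin protein, here with an anti-GFP antibody, on 2 biological replicates of 1 group, with no other condition. Both replicates came from strain OP698, whose genotype is unc-119(tm4063) III; wgIs698, and which carries an integrated transgene for the SNAI-1 protein (K02D7.2) with a tag at its C terminus that the labels give as GFP-FLAG in one field and eGFP in another. Late embryos of both sexes were taken whole, 5 hours after synchronization by egg bleaching, so all cell types are mixed. The transgene is carried besides the native snai-1 gene, and the labels used here do not say how much of the surrounding genome it carries. Every region whose summit lay within 20 kb of one of these genes was taken from the authors' pooled ce11 list, which gave 53 of its 30000 regions, and likewise from the list of each replicate.

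Snail proteins are zinc-finger transcription factors that bind E-box sequences and mostly repress their targets. In C. elegans, the sister cells of the NSM neurons normally die, because the bHLH proteins HLH-2 and HLH-3 switch on egl-1 there through an element downstream of the gene. CES-1 is known to repress egl-1 in those cells when it is overactive, as in ces-1 gain-of-function mutants, or when its repressor CES-2 is lost, and the cells then survive. EGL-1 is a BH3-only protein that binds CED-9, an inhibitor of cell death, and so frees CED-4 to activate the caspase CED-3. SCRT-1 is the relative of the Scratch proteins within the family. SNAI-1 itself is the protein that was tagged and precipitated here, so regions at snai-1 bear on its own gene and those at ces-1 and scrt-1 on its relatives.

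The sequences below are the summit windows of the regions that the results turn on, printed on the strand of the named gene and read from the RefSeq genome WBcel235 (the assembly behind ce11). The first is the strongest region near any of these genes, with capitals for the match to GTTCNANNC, the core of the B box, which is an internal promoter element of tRNA genes. It also holds 1 CANNTG match, which is not capitalised. In the others, capitals mark any CANNTG E-box. Bases in annotated untranslated regions were left out, which shortened the first and the last. The first therefore lacks the 5′ end of the tRNA gene, which runs to 322703.

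tRNA-Asp gene upstream of snai-1, chrIV:322623-322686, minus strand: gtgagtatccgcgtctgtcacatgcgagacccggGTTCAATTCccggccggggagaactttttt
col-101 exon upstream of snai-1, chrIV:325673-325773, minus strand: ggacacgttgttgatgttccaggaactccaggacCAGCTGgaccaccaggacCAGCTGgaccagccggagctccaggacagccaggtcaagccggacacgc
intergenic region upstream of snai-1, chrIV:323917-324017, minus strand: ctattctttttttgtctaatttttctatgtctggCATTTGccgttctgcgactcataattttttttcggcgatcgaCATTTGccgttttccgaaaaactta
snai-1 promoter, chrIV:314506-314606, minus strand: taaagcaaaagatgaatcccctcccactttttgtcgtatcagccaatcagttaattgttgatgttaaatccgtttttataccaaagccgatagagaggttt
snai-1 intron, chrIV:312214-312314, minus strand: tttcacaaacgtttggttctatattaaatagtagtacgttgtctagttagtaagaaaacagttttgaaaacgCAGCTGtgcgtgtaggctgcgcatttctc
rrsr-1 promoter, downstream of egl-1, chrV:14425386-14425486, minus strand: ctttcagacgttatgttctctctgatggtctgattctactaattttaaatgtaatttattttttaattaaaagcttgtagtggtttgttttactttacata
3′ flank of egl-1, chrV:14431240-14431307, minus strand: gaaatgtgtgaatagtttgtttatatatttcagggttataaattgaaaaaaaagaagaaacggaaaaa

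Among these genes, snai-1 alone had a peak that passed the authors' reproducibility filter (irreproducible discovery rate, IDR), and that peak lay over a tRNA gene. An IDR peak within 20 kb was thus found for 1 of the 4 genes, where 17.1% of all protein-coding genes have one. No IDR summit lay in the promoter window of snai-1, ces-1, scrt-1 or egl-1, taken from 1000 bp upstream to 200 bp downstream of a transcript start, against 1.55% of all protein-coding genes. A pooled candidate summit lay in that window at 1 gene, snai-1, where the share over all genes was 38.4%. Inside the gene body there were candidate summits at 2, snai-1 and scrt-1, where the share over all genes was 41.5%. With 4 genes, these counts are a description and were not tested. Each candidate list held 30000 regions, and the IDR list held 495, which are the 495 strongest of the pooled list, so a candidate summit by itself does not mark a site of binding.

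**Figure D1:**
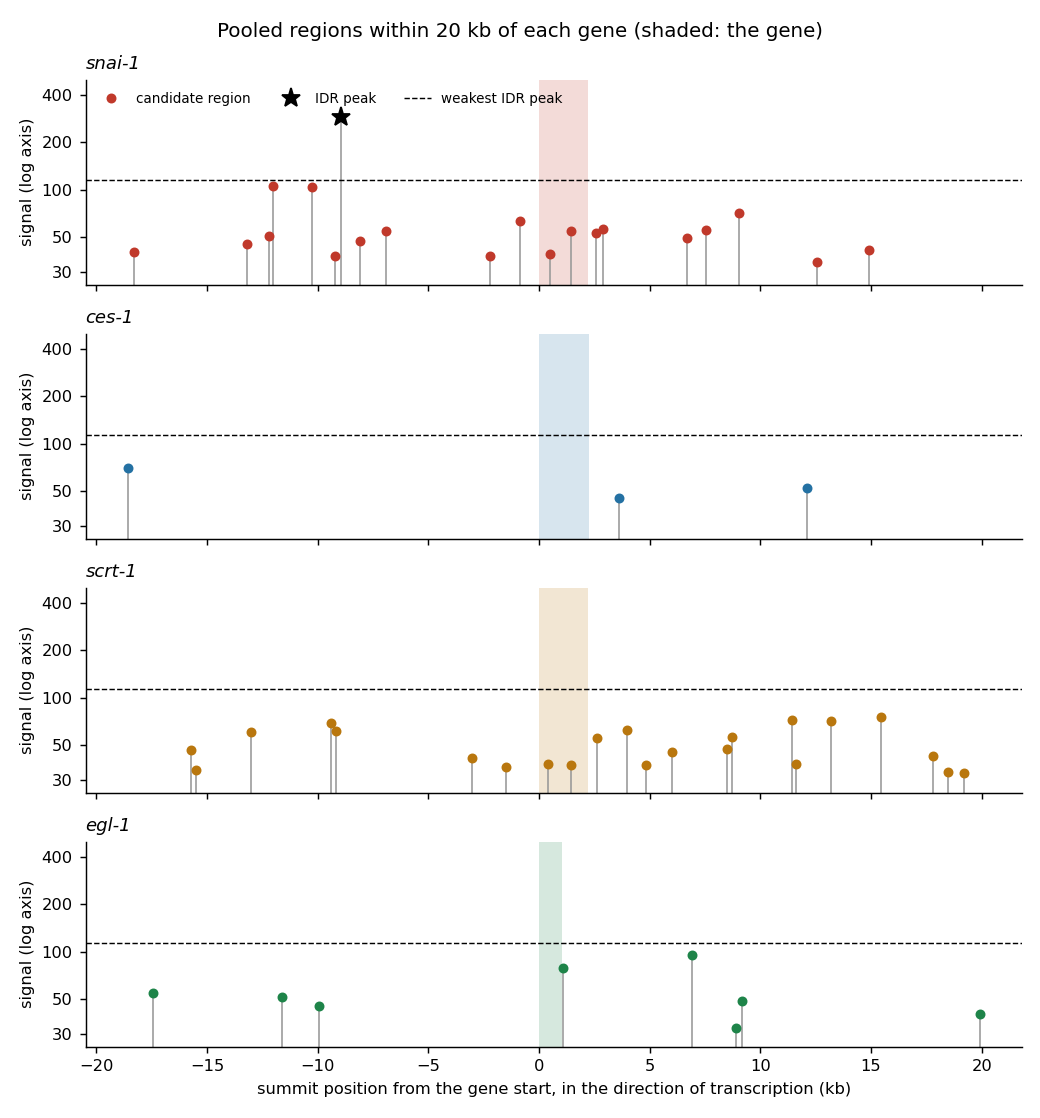
Signal of each pooled region (vertical axis, logarithmic, the authors' unstated scale) by the distance of its summit from the gene start in kb, in the direction of transcription. The shaded band is the gene. The star is the IDR peak at a signal of 288.2 upstream of snai-1, and every other region lies below the dashed line, the weakest IDR peak of the list at 114.7.

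The gene snai-1 lies on chromosome IV from 311484 to 313715 on the minus strand, between swt-1, which ends 247 bp past its 3′ end, and dsc-4, 1340 bp upstream of its start. The strongest region near it had its summit at 322673, 8958 bp upstream of snai-1, with a signal of 288.2, a −log10 q-value of 2.47 and rank 60 of the pooled list. It ranked 59 in replicate 1, with a signal of 154.9, and 53 in replicate 2, with a signal of 144.8, so both replicates held it among their strongest regions. The signal is the authors' own value per region. Its scale is unstated, so it can be compared only within a list. Rank 1 is the strongest region.

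That summit fell inside a 72 bp gene for an aspartate tRNA (322632 to 322703, minus strand), 30 bp from its 5′ end. The summit lies in an intron of grl-26, which encodes a protein with a Ground-like domain, near the 5′ end of grl-26. At its own 5′ end the tRNA gene runs into bases annotated as untranslated region. It also overlaps the ncRNA gene K02D7.8 on the other strand. Of 612 annotated tRNA genes, 317 had a pooled summit within 100 bp, and 17 of these, this one included, had one of rank 60 or stronger. The dsc-4 gene and a large part of grl-26 stand between the peak and snai-1. It was the only region of the 53 with a tRNA, snoRNA, snRNA or microRNA gene within 100 bp of its summit.

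The other 2 regions near snai-1 with a rank below 1000 rested more on replicate 1. One, at 325723, lay 12008 bp upstream of snai-1 in a coding exon of col-101, a cuticle collagen gene that lies within drl-1 on the other strand. It had a pooled signal of 105.6 and rank 645, and it ranked 444 in replicate 1 and 3339 in replicate 2. The other, at 323967, lay 10252 bp upstream of snai-1 between grl-26 and drl-1, with a pooled signal of 103.6 and rank 691. It ranked 341 in replicate 1, with a signal of 76.3, and 25442 in replicate 2, with a signal of 19.3, so replicate 2 held it only as a weak region. Both summit windows hold a pair of E-boxes of one kind, CAGCTG at col-101 and CATTTG in the intergenic region. The share of such pairs over all pooled regions is not given here, so this is a description of the 2 windows.

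Closer to snai-1 the regions were weaker. The summit in its promoter window, at 314556, lay 841 bp upstream of the gene start, with a pooled signal of 63.5 and rank 4737. Its ranks were 3707 in replicate 1 and 20724 in replicate 2, and its summit was at the same base in both. Inside the gene, a summit in an intron at 312264 had a signal of 55.1 and rank 7966, and was matched in replicate 1 (rank 3535) but in no region of replicate 2. A further intronic summit at 313230 had a signal of 39.1 and rank 21332, with ranks 25324 and 26265 in replicates 1 and 2. Next in rank after the first 3 was a summit at 304698 in the space between swt-1 and pnp-1, 6786 bp downstream of snai-1, with a signal of 71.8, rank 2899, and ranks 8753 in replicate 1 and 2259 in replicate 2. None of these 4 reached the signal of the weakest IDR peak.

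The region count around snai-1 was high within 20 kb and low just outside it. Within 20 kb there were 20 pooled summits, 21 in replicate 1 and 18 in replicate 2. All protein-coding genes had a median of 11 pooled summits, with quartiles of 7 and 16, and 13.8% had 20 or more. From 20 to 40 kb there were only 3 pooled summits, 4 in replicate 1 and 6 in replicate 2, where the median over all genes was 10 in the pooled list. The inner count exceeded the outer one by 17, a difference that 1.09% of 19894 protein-coding genes matched or passed. The corresponding share was 1.08% in replicate 1 and 3.98% in replicate 2. Neighbouring genes share most of their windows, so these shares do not count independent places, and the outer window was chosen after the data were seen. The extra copies of the snai-1 region that the transgene may bring were not tested for their part in this count, and no read depth or control library was analysed here.

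**Figure D2:**
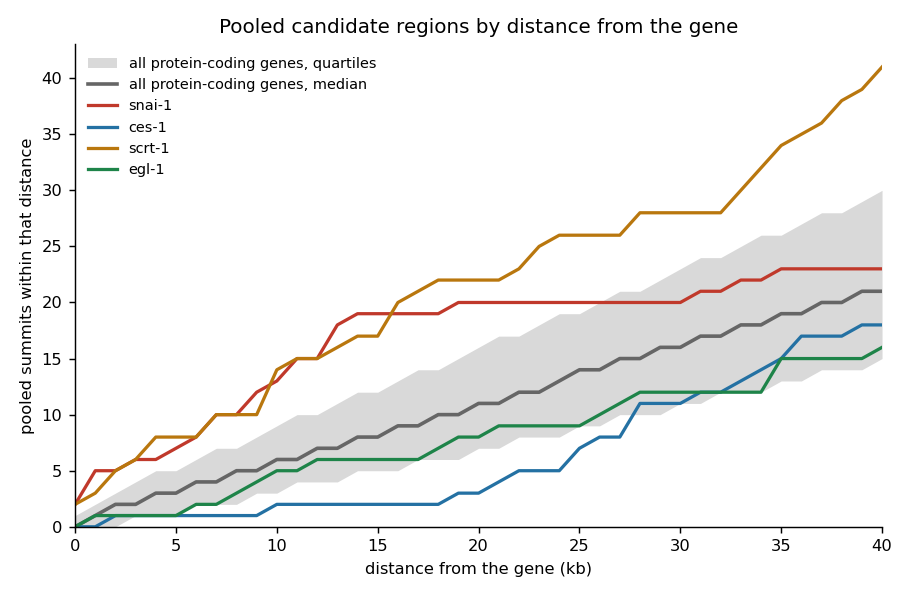
Number of pooled summits (vertical axis) within each distance of the gene in kb (horizontal axis), for the 4 genes and for all protein-coding genes (line, median; band, quartiles). The snai-1 line reaches 20 at 20 kb and 23 at 40 kb, while the scrt-1 line goes on to 41.

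The mutated gene of the strain, unc-119 on chromosome III, lay among many candidate regions. It had 29 pooled summits within 20 kb, a number that 2.80% of protein-coding genes matched or passed, with 26 in replicate 1 and 22 in replicate 2. The best of them ranked 907, with a signal of 95.5, and lay 11294 bp downstream of unc-119 just upstream of a transcript start of vab-7, a homeobox gene. The count of 29 was compared with all protein-coding genes only, not with those of chromosome III or with its surroundings. No reason for it was tested.

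The gene egl-1 lies on chromosome V from 14431308 to 14432359 on the minus strand, with F23B12.1 897 bp beyond its 3′ end. It has no protein-coding gene for 8781 bp upstream, where a pseudogene lies. It had 8 pooled summits within 20 kb, 10 in replicate 1 and 10 in replicate 2, and 71.1% of protein-coding genes had as many or more in the pooled list. None lay in its promoter window or in its body, in the pooled list. Only 1 pooled summit lay within 5 kb. That summit, at 14431290, was 18 bp past the 3′ end of egl-1, with a signal of 78.6 and rank 1971. It ranked 1934 in replicate 1, with a signal of 47.5, and 7152 in replicate 2, with a signal of 30.3, and the summits of both replicates were within 10 bp of the pooled one. Its printed flank is rich in A and T, with a GC content of 23.5%, and no CANNTG E-box lay within 50 bp of the summit.

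The strongest region near egl-1 belonged by position to another gene. Its summit at 14425436 lay 5872 bp downstream of egl-1 and 428 bp upstream of the transcript start of rrsr-1. It had a signal of 95.8 and rank 894, and ranked 1629 in replicate 1 and 1243 in replicate 2, so both replicates held it at a like rank. Its window, printed above, holds no CANNTG E-box. No pooled summit lay between it and the summit beside egl-1. Replicate 1 had none there either, and replicate 2 had 2 weak ones. One, at 14425627, overlapped the pooled region of rank 894 and had rank 26136 and a signal of 19.0. The other, at 14426950, lay 4358 bp downstream of egl-1, overlapped no pooled region, and had rank 22450 and a signal of 20.5. The remaining 3 of the 5 best were weaker. One in F23B12.7, at 14449808, had a signal of 54.8 and rank 8108, with ranks 10315 in replicate 1 and 19048 in replicate 2. One in the upstream neighbour F23B12.4, at 14443960, had a signal of 51.9 and rank 9830, with ranks 6384 in replicate 1 and 12080 in replicate 2. One at 14423204, in the promoter windows of pas-1, a proteasome subunit gene, and rpoa-12, had a signal of 48.6 and rank 12036, with ranks 7223 in replicate 1 and 21940 in replicate 2. That replicate 2 region had its summit 293 bp away, and a nearer one, at 14423147, ranked 27522.

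The fewest regions lay around ces-1, which is on chromosome I from 8633897 to 8636169 on the plus strand and overlaps cpn-1 at its own 3′ end, with fer-1 2694 bp upstream. It had 3 pooled summits within 20 kb, 5 in replicate 1 and 3 in replicate 2. Only 8.17% of protein-coding genes had 3 or fewer in the pooled list. None of the 3 lay in the gene or its promoter window, and all 3 lay in a promoter window of another gene. The nearest, at 8637534, was 1365 bp downstream of ces-1 within cpn-1, a calponin gene, with a signal of 45.5, rank 14546 and a match in replicate 1 only (rank 9597). The strongest, at 8615333, was 18564 bp upstream between the divergent starts of cfim-1 and slc-25A42, with a signal of 70.0 and rank 3180. Its ranks of 6327 in replicate 1 and 3619 in replicate 2 came from summits within 10 bp of the pooled one. The last, at 8646012 in syx-17 and 439 bp upstream of sig-7, had a signal of 52.8 and rank 9268, with ranks 24566 in replicate 1 and 9510 in replicate 2. From 20 to 40 kb the count was 15 in the pooled list, 7 in replicate 1 and 13 in replicate 2, so the step was smaller in replicate 1.

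The highest count belonged to scrt-1, on chromosome I from 2568860 to 2571059 on the plus strand, between ssp-19, 5862 bp upstream, and aat-5, 680 bp downstream. It had 22 pooled summits, 21 in replicate 1 and 22 in replicate 2. As many or more were found for 9.84% of all protein-coding genes, and for 17.3% of those on the same chromosome. The count stayed high outside the window, with 19 pooled summits from 20 to 40 kb. In bins of 10 kb, the 4 bins nearest the gene start held 5.50 ± 2.38 pooled summits and the other 36 bins within 200 kb held 5.36 ± 2.39 (SD over bins), so the stretch around scrt-1 did not stand apart from its surroundings. All bins of the genome averaged 2.99 ± 2.38 (SD, 10024 bins).

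**Figure D3:**
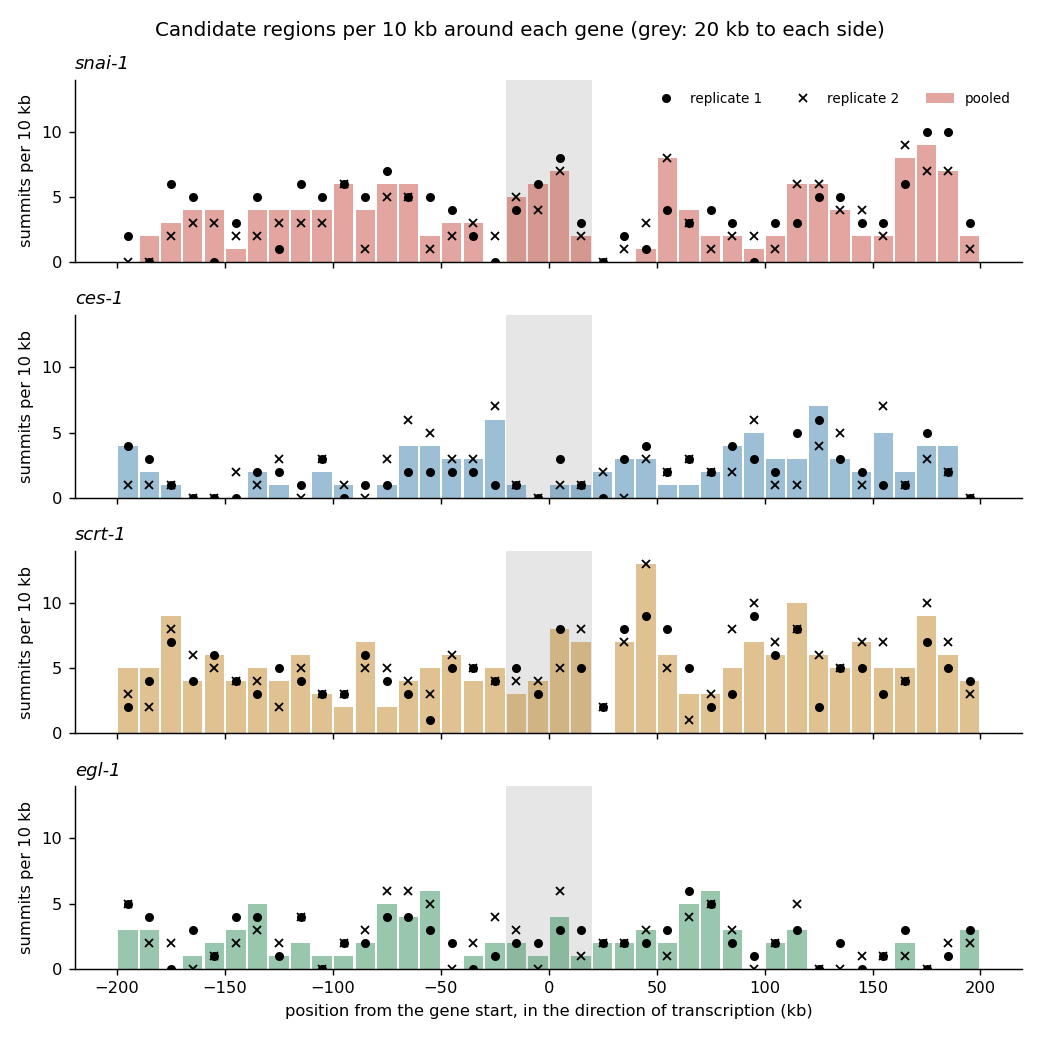
Number of summits per 10 kb (vertical axis) by position from the gene start in kb, in the direction of transcription, for the pooled list (bars), replicate 1 (points) and replicate 2 (crosses). The pooled bins next to the grey band of snai-1 hold 0 summits on both sides, whereas around scrt-1 the bars are high on both sides of the band, with 1 empty pooled bin from 20 to 30 kb.

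No pooled region near scrt-1 ranked within the first 1000. The best, at 2584328 in fbp-1, which encodes the gluconeogenic enzyme fructose-bisphosphatase, had a signal of 75.4 and rank 2362, with ranks 10172 in replicate 1 and 1253 in replicate 2. The next, at 2580271 between genes, had a signal of 72.4 and rank 2796, with ranks 4298 in replicate 1 and 3096 in replicate 2. Another in fbp-1, at 2582049, had a signal of 71.3 and rank 2963, with ranks 8249 in replicate 1 and 2810 in replicate 2. On the upstream side, a summit at 2559449 in C55C2.4, 923 bp upstream of C55C2.3, had a signal of 69.3 and rank 3346. The regions that overlap it ranked 2635 in replicate 1 and 2650 in replicate 2. That of replicate 2 had its summit 238 bp away, and both also match the pooled region at 2559679. The fifth in rank, at 2572853 in the neighbour aat-5, had a signal of 62.3 and rank 5104, with ranks 7790 in replicate 1 and 6603 in replicate 2. Each of these 5 was thus overlapped by a region of each replicate. The summits in introns of scrt-1 itself, at 2569284 and 2570326, had signals of 37.8 and 37.3 and ranks of 22903 and 23559. The first was matched in replicate 2 only (rank 15132), and the second in both, at ranks 20930 in replicate 1 and 18958 in replicate 2. The nearest upstream summit, at 2567351, 1509 bp before the gene start, was matched in neither replicate. The best rank in replicate 1, 1398, belonged to a region at 2577576 downstream of scrt-1 that ranked 7321 in the pooled list and had no match in replicate 2.

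Seen against all genes, snai-1 stood out by its best rank and the others did not. A best pooled rank within 20 kb of 60 or stronger was found for 2.80% of protein-coding genes. For egl-1 at rank 894 that share was 26.2%, for scrt-1 at rank 2362 it was 51.3% and for ces-1 at rank 3180 it was 60.9%. The median best rank over the genes with a region was 2217. The high place of snai-1 came from the tRNA peak, and within 5 kb its best rank was 4737.

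**Figure D4:**
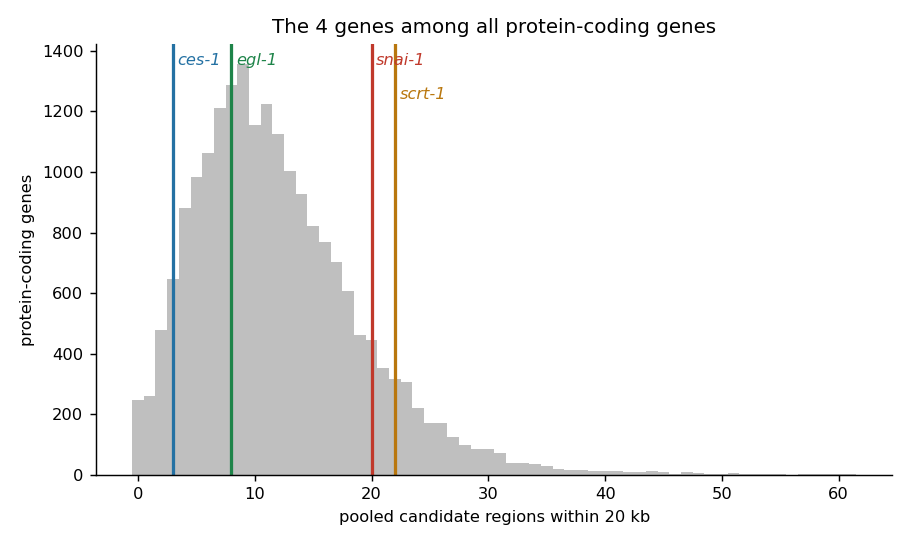
Number of protein-coding genes (vertical axis) by the number of pooled candidate regions within 20 kb (horizontal axis), with a line at each of the 4 genes. The lines stand at 20 for snai-1, 3 for ces-1, 22 for scrt-1 and 8 for egl-1, where the median of all genes is 11.

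Over the 53 regions the median pooled signal was 49.7 and the median rank was 11222 of 30000. The signals ran from 34.8 to 288.2 at snai-1, 45.5 to 70.0 at ces-1, 33.6 to 75.4 at scrt-1 and 33.0 to 95.8 at egl-1. Upstream of the gene there were 11 at snai-1, 1 at ces-1, 7 at scrt-1 and 3 at egl-1. Downstream there were 7, 2, 13 and 5 in the same order of genes, and 2 lay inside snai-1 and 2 inside scrt-1.

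The replicates shared a somewhat larger part of these regions than of the whole list, but the interval of the share reached the value of the whole list. Of the 53 pooled regions, 34 were overlapped by at least 1 bp by a region of each replicate, which is 64.2% (exact 95% binomial interval 49.8 to 76.9%), where the share over all pooled regions was 52.1%. The interval covers counting error only and treats regions as independent. The counts were 12 of 20 at snai-1, 2 of 3 at ces-1, 14 of 22 at scrt-1 and 6 of 8 at egl-1. Among regions of rank 15000 or stronger the share was 71.4% at the 4 genes and 75.1% in the whole list, so the small excess was not seen there. Pooled regions can overlap each other, and 14 of the 34 shared their replicate 1 match with another region.

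Across the 34 regions found in both replicates, the signals had a Spearman rho of 0.41. It was 0.35 across the 33 left without the pooled IDR region at the tRNA gene. The overlapping pooled region at 322952 has the same replicate matches, at ranks 59 and 53, and was kept. The 0.35 is therefore not free of the tRNA peak. Across all 15638 such pooled regions rho was 0.32, and across the 15144 of them outside the IDR list it was 0.25. These correlations run over regions of the same libraries, count a replicate region again where pooled regions share it, and are a description. The rank in the replicates differed by a median factor of 1.86 at the 4 genes and of 2.11 over all regions. It differed by a factor over 10 for 1 of the 34, the intergenic region upstream of snai-1, and for 7.07% of all regions.

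**Figure D5:**
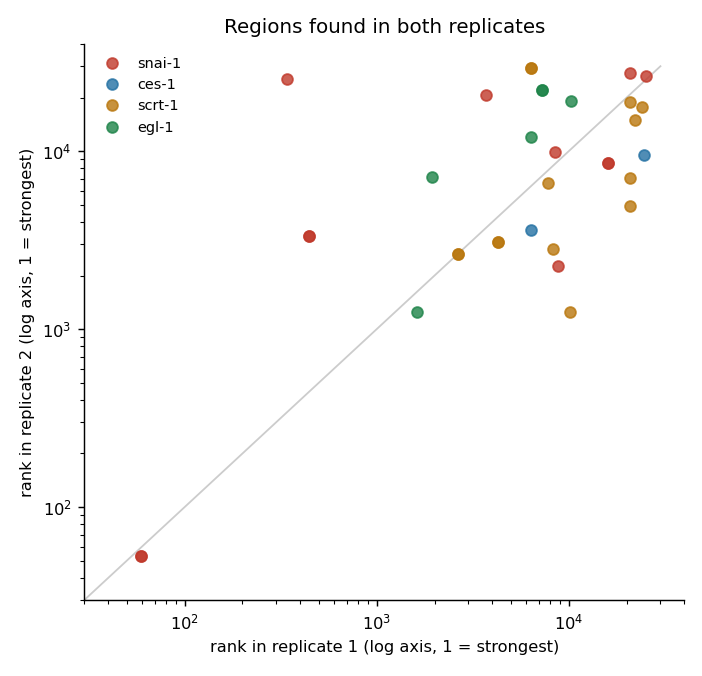
Rank in replicate 2 (vertical axis) against rank in replicate 1 (horizontal axis), both logarithmic with 1 the strongest, for the 34 regions found in both replicates. The tRNA peak near snai-1 sits at the lower left at ranks 59 and 53, and the point at the upper left is the region at ranks 341 and 25442.

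Some regions of a replicate overlapped no pooled region, and those named here were chosen after their values were seen. The strongest was in replicate 2 at 295678, 833 bp upstream of a transcript start of pnp-1 and 15806 bp downstream of snai-1, with rank 2872. In replicate 1 the strongest was at 321115, 571 bp upstream of dsc-4, with rank 6041 and a signal of 36.1. In replicate 1 there were 11 such regions of 57 (19.3%) near the 4 genes, where the share over the whole list was 24.3%. In replicate 2 there were 13 of 53 (24.5%), where it was 28.2%. By gene, replicate 1 had 4 at snai-1, 0 at ces-1, 3 at scrt-1 and 4 at egl-1, and replicate 2 had 3 at snai-1, 1 at ces-1, 7 at scrt-1 and 2 at egl-1.

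The E-box bound by Snail proteins was found at few summits. The Snail hexamer CAGGTG lay within 50 bp of the summit, on either strand, in 3 of the 53 regions (5.66%) and in 2.65% of all pooled regions. The 3 were at 298825 near pnp-1, 12659 bp downstream of snai-1 (rank 18146), and at 2553355 and 2559679, both upstream of scrt-1 (ranks 27201 and 5172). None was among the regions within 5 kb of snai-1, ces-1, scrt-1 or egl-1. Any CANNTG E-box, a class that includes CAGGTG, was present in 16 of the 53 (30.2%) and in 29.2% of all pooled regions. The B-box core GTTCNANNC was present in 1 of the 53, the tRNA peak, and in 3.68% of all regions. A match of letters is a description and does not show binding.

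Among promoter candidates in the cell death pathway around egl-1, the 3 of best rank were at engulfment genes, and none was an IDR peak. The list of 26 genes was made up of core death genes, regulators of egl-1 or other death genes, and engulfment genes. An IDR summit lay in the promoter window of 0 of them, where the share over all genes was 1.55%, so the 0 is near the background. A pooled candidate summit lay in that window at 12 of them (46.2%), where the share over all genes was 38.4%, and an IDR summit lay within 20 kb of 6 (23.1%), where it was 17.1%. By group, promoter candidates were found at 1 of 4 core genes, 5 of 15 regulators and 6 of 7 engulfment genes. The groups are small, and these counts are a description and were not tested. At ced-5, whose product acts with CED-12 to activate the GTPase CED-10, the summit ranked 1048 in the pooled list, 998 in replicate 1 and 3058 in replicate 2. At ced-7, an ABC transporter gene, the ranks were 3273 in the pooled list, 2940 in replicate 1 and 5849 in replicate 2, and at ced-12 they were 3385, 4220 and 8069 in the same order of lists. The other engulfment genes ranked lower in the pooled list, at 11192 for ced-1, 12327 for ced-2 and 13147 for ced-10, and ced-6 had none. The regulators cep-1 (rank 8020) and sptf-3 (rank 9437) came before these. No pooled promoter candidate was found at ced-9, ced-4 or ced-3, which act after egl-1. None was found either at ces-2, which regulates ces-1, or at hlh-2 and hlh-3, whose products activate egl-1 in the NSM sister cells. Single replicates held weak ones there, replicate 1 at ces-2 (rank 17974) and hlh-3 (rank 16762), and replicate 2 at hlh-2 (rank 28694). Among the 6 genes with an IDR summit within 20 kb was ces-2 (rank 348). The others were ced-6 (98), ced-2 (106), ced-10 (209), ced-5 (477) and ceh-20 (486). A window of that size can hold other genes, and the places of these summits are not given here. The ced-13 gene, which encodes the other BH3-only protein, had a promoter candidate of rank 29953, and it is named after its value was seen, as the 1 core gene with a candidate.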

How the data were processed

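ChIP-seq of GFP-tagged SNAI-1 was done in 2 replicates of 1 group. The authors deposited narrowPeak lists on ce11: candidate regions per replicate, candidates of both replicates pooled, and peaks past an IDR threshold (495). Per the deposited manifests, each list was made from alignments and a control alignment. For caller, version and threshold, the sources used here name none. The signal per region is the authors' value, deposited on an unstated scale. The deposited −log10 q-values were read but not used to filter. Depth is unknown, since the files give no read counts. The ce10 lists were not used here.

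Regions were placed on Ensembl release 115 (WBcel235, ce11 coordinates), counting from 1, with Python 3.11.15, pandas 2.3.3 and scipy 1.17.1. RefSeq gave the same ends for all 4 genes, and no region passed a chromosome end. Distance ran from the summit to the gene record. All 19973 protein-coding genes served as comparison, with no random draws. No test was made, since there is 1 group. Counting functions were tested on simulated data. The members, lists and motifs were chosen with earlier results of these data known. The rule named the members, their 5 best-ranked regions, those in the gene or promoter, and the 3 best pathway promoters. Alternatives changed distance, anchor, list, overlap rule, comparison genes and motif window. The outer window and rank factors were added after the data were seen.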

Additional observations from a re-analysis of the deposited data

How the results depend on the processing

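No paired analysis was possible because there was 1 group. Of 72 values recomputed under an alternative for 15 results, 44 stayed close to the main value and 28 moved. For a count or rank, moved means by over 1.5 times. These values are counts, ranks and shares, which have no direction of their own to reverse. Against all pooled regions, the share found in both replicates did change sides. It was higher at the 4 genes in the main setting (64.2% against 52.1%). It was lower there among regions of rank 15000 or stronger (71.4% against 75.1%). Those regions were few, 14 at snai-1, 3 at ces-1, 12 at scrt-1 and 6 at egl-1, so that difference is small in regions. With a reciprocal overlap of 50% the share was again higher at the 4 genes (50.9% against 41.7%). Distance moved the counts most. Within 10 kb there were 13 regions at snai-1, 14 at scrt-1 and 5 at egl-1, and within 5 kb 7 at snai-1, 1 at ces-1, 8 at scrt-1 and 1 at egl-1. Within 40 kb there were 18 at ces-1, 41 at scrt-1 and 16 at egl-1. The best rank within 5 kb was 4737 at snai-1, 14546 at ces-1, 5104 at scrt-1 and 1971 at egl-1, and within 10 kb 9268 at ces-1. With 1 replicate alone the best rank was 6327 (replicate 1) and 3619 (replicate 2) at ces-1, 1398 and 1253 at scrt-1, and 1629 and 1243 at egl-1, and ces-1 had 5 and 3 regions. Among the 15000 strongest pooled regions scrt-1 had 12. On its own chromosome, 17.3% of genes had as many regions as scrt-1. The 4 genes had 0 IDR peaks within 5 kb, 4 regions among the 990 strongest pooled ones, and 3 and 1 among the 495 strongest of replicates 1 and 2. With summits within 100 bp as the match, 35.8% of the 53 regions were found in both replicates, against 27.1% of all. CAGGTG was present at 5 regions (9.43%, against 5.12% of all) with 100 bp on either side of the summit and at 12 (22.6%, against 10.8%) in whole regions, so the share over all regions grew too. Depth is unknown, so a missing region may be one below the limit of 30000 per list.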

Other observations

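The pooled bins just outside the 20 kb on each side of snai-1 were empty. The bin from 20 to 30 kb past the gene start held 0 summits in the pooled list and in each replicate. The bin from 30 to 20 kb before the start held 0 in the pooled list, 0 in replicate 1 and 2 in replicate 2. Between them, the 4 bins within 20 kb held 5.00 ± 2.16 pooled summits (SD over bins). The other 36 bins within 200 kb held 3.50 ± 2.41, so the spreads overlapped. The fullest of the 4 near bins held 7 pooled summits, and the fullest of the other 36 held 9. These bins were singled out after their values were seen, and no explanation was tested.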
